A study of Mus musculus with 10 samples.

Results

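Homeostatic lymphoid and stromal chemokines were examined through 8 genes of the NanoString PanCancer Immune Profiling panel, chosen by name from the 770 gene probes measured. They were Cxcl12 and its receptor Cxcr4, Ccl19 and Ccl21a and their receptor Ccr7, Cxcl13 and its receptor Cxcr5, and Cxcl14. Expression was measured in 10 tumors of the YUMMER1.7 line, a BRAF-mutant mouse melanoma line with further engineered deletions, that of Cdkn2a among them, injected under the skin of syngeneic mice. Of these, 5 tumors grew in wild-type mice (WT replicates 2 to 6) and 5 in Siah2-/- mice (Siah2 KO replicates 1, 2, 3, 5 and 6), and all were taken at day 11 after injection according to the labels. The deletion was in the host, in all its cells, and the injected cells carried Siah2 in both groups. Each measurement used 100 ng of RNA from a whole tumor, so that fewer cells of a type and less RNA per cell cannot be told apart. The labels do not say that each tumor came from a separate mouse, and p-values measure the spread between these tumors. No Siah2 probe was among the values to check the genotype. The design text of the series names another Yumm line, Rnf5-/- hosts and an earlier day of collection, so the line, the genotype and the day used here are those of the sample labels.

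Homeostatic chemokines are made constantly by stromal cells and place lymphocytes and dendritic cells within tissues, unlike inflammatory chemokines, which are induced on injury or infection. Cxcl12 from fibroblasts and endothelium retains Cxcr4-bearing leukocytes in tissue. Ccl19 and Ccl21 draw Ccr7-bearing naive T cells and mature dendritic cells into lymphoid tissue and lymph vessels, and Cxcl13 draws Cxcr5-bearing B cells and follicular helper T cells into follicles. Cxcl14 is made by epithelium and fibroblasts.

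Cxcl12 rose in Siah2 KO tumors, with every tumor above the WT range, and Cxcr4 rose with some overlap, while the Ccl19, Ccl21a and Ccr7 genes and Cxcl14 did not pass the test in either direction, and the Cxcl13 and Cxcr5 probes were mostly within the background of the assay. In normalized counts, which are the digital counts of a probe scaled to the reference genes of the same tumor, Cxcl12 averaged 396 ± 115 (SD, n = 5) in Siah2 KO and 212 ± 33.7 (SD, n = 5) in WT tumors. Cxcr4 averaged 264 ± 63.9 (SD, n = 5) in Siah2 KO and 170 ± 45.3 (SD, n = 5) in WT tumors. At an adjusted p under 0.05 (limma, Benjamini-Hochberg over the 770 probes), 2 of the 8 members were higher in Siah2 KO tumors, where 31.3% of all probes were, and 0 were lower, where 9.74% of all probes were. In either direction 41% of all probes passed. Median scaling gave 1 member higher and 1 lower (Cxcl12 and Ccr7), and quantile normalization 1 higher and 2 lower (Cxcl12, and Ccr7 with Cxcl14). At an unadjusted p under 0.05 the members were also 2 higher and 0 lower, both by limma and by the equal variance test that the methods name. The median log2 fold change of the members was -0.10, beside 0.24 over all probes, which median scaling moved to -0.01 and quantile normalization to -0.04. The median of the members was set by Ccl19 and Cxcr5, near or in the background, and does not describe the members with usable values.

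**Figure D1:**
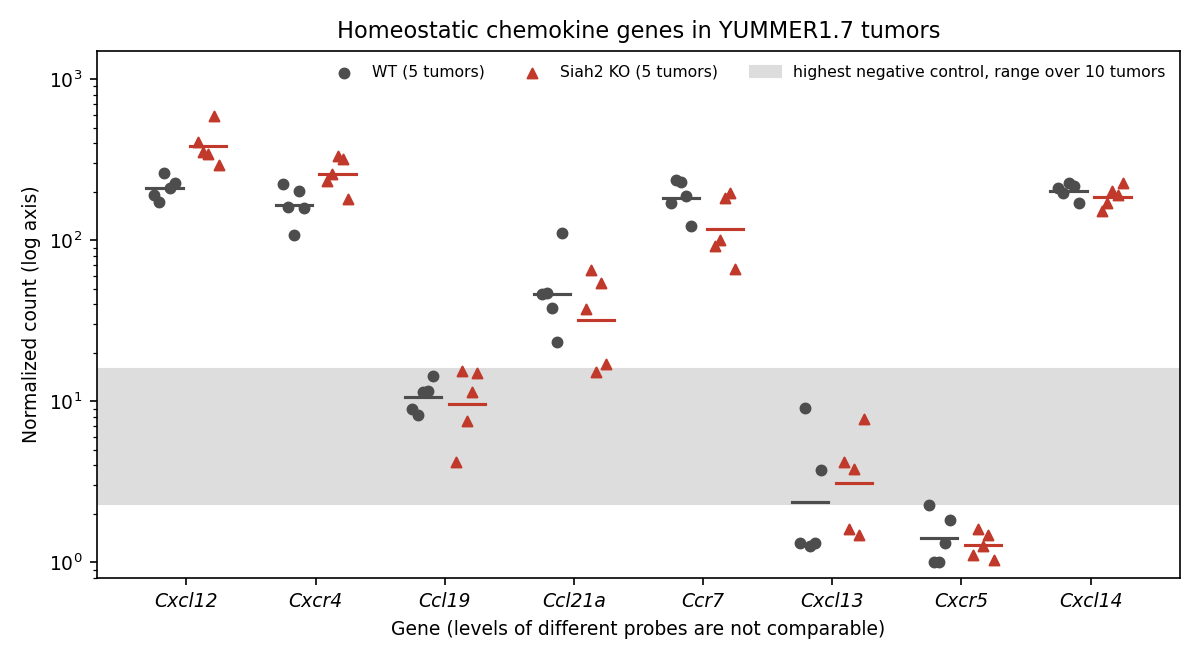
Normalized counts (log axis) of the 8 genes in each of 5 WT (circles) and 5 Siah2 KO (triangles) tumors, with bars at the geometric mean and a grey band over the range of the highest negative control probe in the 10 tumors, 2.31 to 15.8. The groups are apart for Cxcl12 (173 to 261 in WT, 292 to 588 in Siah2 KO), overlap for the other genes, and lie in or under the band for Ccl19, Cxcl13 and Cxcr5.

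The promoters of Cxcl12 and Cxcr4, the members that rose, are shown with that of Cxcl14, a stromal ligand that did not pass the test. RefSeq sequences of GRCm38.p6 were found for 6 of the 8 members, and each run is the 250 bases before the start of the gene, 5′ to 3′ on the strand of the gene. Capitals mark matches on either strand to the GC box GGGCGG or the TATA box TATAAA. The Cxcl12 promoter lies at chr6:117168285-117168534 (plus strand), that of Cxcr4 at chr1:128592300-128592549 (minus strand) and that of Cxcl14 at chr13:56296552-56296801 (minus strand).
Cxcl12: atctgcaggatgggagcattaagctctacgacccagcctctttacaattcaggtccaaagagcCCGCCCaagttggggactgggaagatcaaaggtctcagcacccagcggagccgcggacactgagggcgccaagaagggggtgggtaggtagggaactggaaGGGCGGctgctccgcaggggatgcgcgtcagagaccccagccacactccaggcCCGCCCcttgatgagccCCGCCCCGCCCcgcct
Cxcr4: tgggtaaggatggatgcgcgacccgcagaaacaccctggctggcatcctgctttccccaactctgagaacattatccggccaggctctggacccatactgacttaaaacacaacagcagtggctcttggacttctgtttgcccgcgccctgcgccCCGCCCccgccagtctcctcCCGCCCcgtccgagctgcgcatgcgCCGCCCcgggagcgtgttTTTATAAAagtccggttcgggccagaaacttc
Cxcl14: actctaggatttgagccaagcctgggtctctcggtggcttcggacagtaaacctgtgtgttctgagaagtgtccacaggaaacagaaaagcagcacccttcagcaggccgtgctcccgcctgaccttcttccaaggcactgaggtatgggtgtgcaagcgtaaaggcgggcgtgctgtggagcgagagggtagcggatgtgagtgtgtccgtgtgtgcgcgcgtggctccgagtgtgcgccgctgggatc
The Cxcl12 window held 5 GC boxes and no TATA box. The Cxcr4 window held 3 GC boxes and a TATA box read on both strands. The Cxcl14 window held neither motif, nor did those of Ccl19 and Ccl21a, and that of Cxcl13 held 1 TATA box. Of 32851 promoter windows of the same length, 32.7% held a GC box and 12.4% a TATA box. These matches are letters in a window, and binding was not measured.

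Cxcl12, the ligand that holds Cxcr4-bearing cells in bone marrow and in stroma, was the member with the clearest difference. Its normalized counts in WT replicates 2 to 6 were 191, 173, 261, 210 and 225, and in Siah2 KO replicates 1, 2, 3, 5 and 6 they were 408, 351, 342, 588 and 292. The groups did not overlap, which was so for 31.6% of all probes, and Siah2 KO replicate 5 was the highest tumor. The log2 fold change was 0.87 (SE 0.19, 95% interval 0.45 to 1.29, adjusted p = 0.0046 by limma, exact permutation p = 0.0079, the smallest that 5 against 5 tumors can give), a ratio of geometric means of 1.83 (95% interval 1.37 to 2.45). By log2 fold change it stood at rank 113 of the 770 probes from the top. Leaving out single tumors moved this value to between 0.72, without Siah2 KO replicate 5, and 0.97, without Siah2 KO replicate 6, and adjusted p was at most 0.014. Scaling to the positive control probes in place of the reference genes gave 0.71 with an adjusted p of 0.19.

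Cxcr4, the receptor of Cxcl12 on most leukocytes and on many tumor and stromal cells, rose less and overlapped between the groups. Its normalized counts were 224, 160, 107, 202 and 158 in WT replicates 2 to 6, and 232, 259, 335, 319 and 179 in Siah2 KO replicates 1, 2, 3, 5 and 6. Of the Siah2 KO tumors, 4 of 5 were above every WT tumor, and replicate 6 lay inside the WT range. The log2 fold change was 0.64 (SE 0.23, 95% interval 0.13 to 1.15, adjusted p = 0.046 by limma, exact permutation p = 0.032), a ratio of geometric means of 1.56 (95% interval 1.1 to 2.22). This call sat at the threshold. It was lost under median scaling (0.38, adjusted p = 0.16), quantile normalization (0.34, adjusted p = 0.21) and positive control scaling (0.48, adjusted p = 0.4), and it held in 3 of 10 fits that left out a tumor, those without WT replicate 2, WT replicate 5 or Siah2 KO replicate 6.

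The change in the ligand against its receptor within a tumor does not depend on the scaling between tumors. The log2 difference Cxcl12 minus Cxcr4 was 0.57 ± 0.35 (SD, n = 5) in Siah2 KO and 0.34 ± 0.59 (SD, n = 5) in WT tumors. The groups overlapped, from 0.03 to 0.88 in Siah2 KO and from -0.23 to 1.28 in WT, and their difference of 0.23 did not pass the test (exact permutation p = 0.47, adjusted p = 0.73 over 5 such differences). A larger rise of the ligand than of the receptor was therefore not detected, and the test does not show that they rose alike.

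Ccr7, which guides naive T cells and migrating dendritic cells to lymph nodes, had lower values in most Siah2 KO tumors. WT replicates 2 to 6 gave 170, 236, 229, 187 and 122 normalized counts, and Siah2 KO replicates 1, 2, 3, 5 and 6 gave 91.9, 100, 182, 196 and 66.5. The Siah2 KO tumors split, with replicates 1, 2 and 6 below every WT tumor and replicates 3 and 5 inside the WT range. The log2 fold change of -0.65 (SE 0.31, 95% interval -1.35 to 0.05) did not pass the test (adjusted p = 0.12 by limma, exact permutation p = 0.087). It passed under the scalings that bring the median of all probes close to 0, with -0.91 under median scaling (adjusted p = 0.019) and -0.92 under quantile normalization (adjusted p = 0.02), and under 0 of 10 fits that left out a tumor (-0.83 to -0.45).

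Ccl21a, a Ccr7 ligand that lymph node stroma displays, varied widely within both groups. Its normalized counts were 46.3, 47.1, 38, 23.4 and 111 in WT replicates 2 to 6, and 37.5, 64.9, 15.1, 54.3 and 17 in Siah2 KO replicates 1, 2, 3, 5 and 6. WT replicate 6 was more than any other tumor, and Siah2 KO replicates 3 and 6 were below every WT tumor. The log2 fold change was -0.51 (SE 0.49, 95% interval -1.61 to 0.58, adjusted p = 0.43 by limma), and -0.21 without WT replicate 6 (adjusted p = 0.74). Lyve1, the lymphatic endothelial marker on the panel, fell from 94.4 to 11.9 mean normalized counts (log2 fold change -2.76, adjusted p = 0.00025), with 8.66 to 15.1 in Siah2 KO and 52.1 to 164 in WT tumors. Resident macrophages carry Lyve1 too, and their genes Cd163 (-1.86, adjusted p = 0.00082) and Mrc1 (-0.89, adjusted p = 0.017), chosen after their values were seen, also fell. Of 6 other macrophage markers, Msr1 (0.92) and Cd68 (0.87) rose and 4 did not pass the test. The part of either cell type in the Ccl21a values was not tested.

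Ccl19, the Ccr7 ligand of dendritic cells and T zone stroma, was close to background. It ranged from 8.15 to 14.4 normalized counts in WT and from 4.22 to 15.3 in Siah2 KO tumors, and it exceeded the highest negative control probe in 8 of 10 tumors. The log2 fold change was -0.12 (SE 0.31, 95% interval -0.8 to 0.57, adjusted p = 0.78 by limma). The mouse genome holds near-identical copies of both ligand genes. RefSeq lists Ccl21b, Ccl21c and Ccl21d, 3 Ccl19 pseudogenes and further gene models that carry these names as synonyms, all on chromosome 4, so either probe may count transcripts of a copy. Within tumors, the differences Ccl19 minus Ccr7 (0.53, exact permutation p = 0.33), Ccl21a minus Ccr7 (0.13, exact permutation p = 0.85) and Ccl21a minus Ccl19 (-0.40, exact permutation p = 0.51) did not pass the test.

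The follicular pair gave no usable level. Cxcl13 had 1.31, 9.13, 1.26, 1.32 and 3.75 normalized counts in WT replicates 2 to 6 and 4.22, 1.6, 3.78, 1.48 and 7.77 in Siah2 KO replicates 1, 2, 3, 5 and 6. Only 1 of these 10 values, WT replicate 3 at 9.13, exceeded the highest negative control probe of its tumor. Cxcr5 was between 1 and 2.27 in all tumors, at or under the floor of the table in 8 of 10 and above the negative controls in 0 of 10, so no fold is given for it. A difference in either gene was not detectable at this depth. Several B cell markers were also at background. Blk was between 1 and 1.6 and Cd79a between 1 and 6.97, both above the negative controls in 0 of 10 tumors, and Ms4a1, the gene of CD20, in 1 of 10. Of the 12 B cell markers only Blnk and Cd22 had a mean of at least 20, and the sum over the list was 189 to 259 in Siah2 KO and 194 to 268 in WT tumors.

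Cxcl14, a ligand of epithelium and fibroblasts whose receptor is not settled, was the steadiest member. Its normalized counts were 211, 195, 228, 217 and 169 in WT replicates 2 to 6, and 151, 169, 201, 190 and 227 in Siah2 KO replicates 1, 2, 3, 5 and 6. The ranges lay almost on top of each other, and the log2 fold change was -0.13 (SE 0.13, 95% interval -0.42 to 0.16, adjusted p = 0.46 by limma). That interval leaves out a change of the size seen for Cxcl12. Under quantile normalization Cxcl14 reached -0.44 (adjusted p = 0.029).

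**Figure D2:**
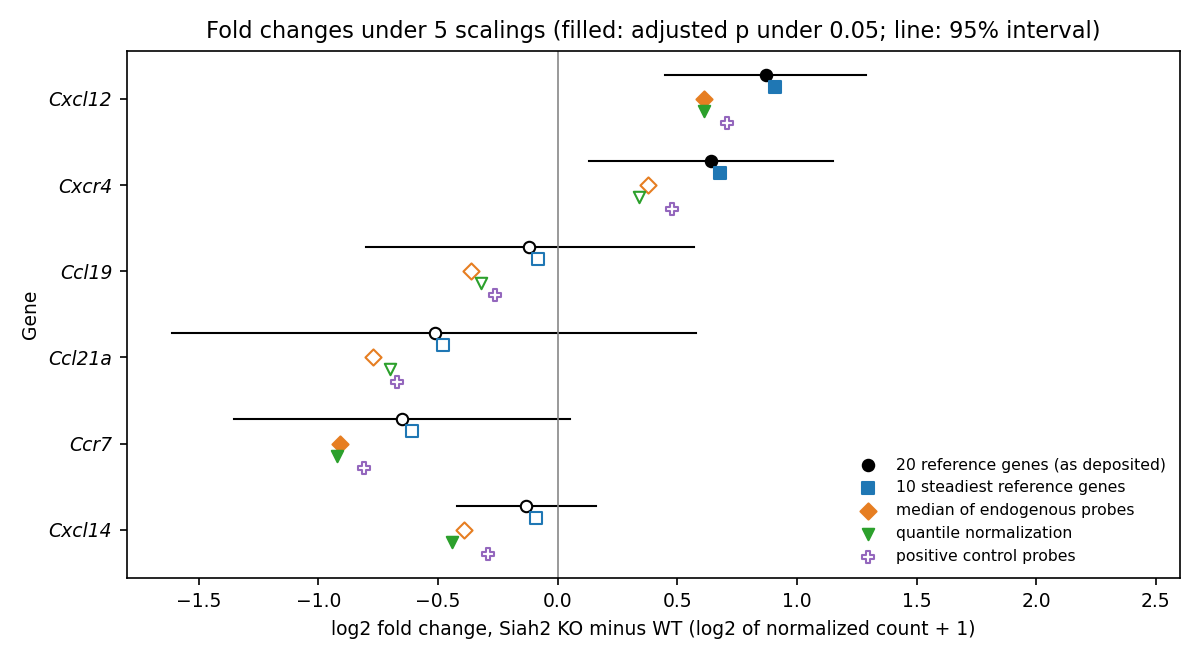
Log2 fold changes, Siah2 KO minus WT, of the 6 members with values above background in most tumors, under the deposited scaling with its 95% interval and under 4 other scalings. Filled symbols have an adjusted p under 0.05. Cxcl12 stays between 0.61 and 0.91, Cxcr4 is filled under the reference gene scalings, and Ccr7 is filled under median scaling and quantile normalization.

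Siah2 KO replicate 6 stood at an end of its group in several members, with the lowest Cxcl12 (292), Cxcr4 (179) and Ccr7 (66.5) and the highest Cxcl14 (227) of the 5 Siah2 KO tumors. Between members, the 2 receptors with usable values had fold changes of opposite sign, although that of Ccr7 did not pass the test. The log2 difference Cxcr4 minus Ccr7 was 0.7 to 1.41 in Siah2 KO and -1.09 to 0.4 in WT tumors, a difference in means of 1.29, with all 5 Siah2 KO tumors above every WT tumor. The estimates of the stromal ligands differed in sign too, although that of Cxcl14 did not pass the test. Cxcl12 minus Cxcl14 was 0.36 to 1.62 in Siah2 KO and -0.17 to 0.41 in WT tumors, with 4 of 5 Siah2 KO tumors above every WT tumor. These differences were chosen after their values were seen, between genes with fold changes of opposite sign, and are given with no test. The groups did not overlap for 31.6% of single probes, and the share among differences of 2 genes was not computed.

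Marker RNA of the cells that make or answer these chemokines also differed between the groups, which does not count cells. Of 8 leukocyte markers, 5 rose and 0 fell (median log2 fold change 0.54), among them Itgb2 (1.16), Cd53 (1.10) and Ptprc, the gene of CD45 (0.78), and the sum over the list was 3630 to 5829 in Siah2 KO and 2216 to 2982 in WT tumors. Of 9 T cell markers, 6 rose, including Cd8a (1.13), Cd3g (0.93) and Cd3e (0.80). Over all probes 31.3% rose and 9.74% fell. Against the median log2 level of the leukocyte markers in each tumor, Cxcl12 changed by 0.61 (adjusted p = 0.028 by limma), while Cxcr4 was at 0.38 (adjusted p = 0.18) and Ccr7 at -0.91 (adjusted p = 0.013).

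Fibroblast markers did not move one way. Fap (-1.97), Pdgfrb (-1.0), Col3a1 (-0.74) and Col1a1 (-0.41) fell, while Serping1 (1.12), C1s1 (0.77) and C1ra (0.68), complement genes that macrophages also express, rose. The sum over the list, mostly collagen, was 11535 to 13968 in Siah2 KO and 17246 to 22104 in WT tumors. Pdgfrb, a receptor of fibroblasts and pericytes, was 48.9 to 60.2 in Siah2 KO and 94.8 to 129 in WT tumors. On the log2 scale Cxcl12 minus Pdgfrb averaged 2.81 ± 0.28 (SD, n = 5) in Siah2 KO and 0.95 ± 0.38 (SD, n = 5) in WT tumors. This difference was chosen after its values were seen, between a gene that rose and a marker that fell, and is given with no test. The complement genes of the list moved the other way from Pdgfrb. The median log2 level of the whole list was 8.61 to 9.46 in Siah2 KO and 8 to 8.43 in WT tumors, opposite in direction to the sum. The gene at the middle of the list was Serping1 in 4 of 5 Siah2 KO tumors and Fap in 3 of 5 WT tumors, so that this median does not follow 1 gene. Relative to it the log2 fold changes were 0.11 for Cxcl12 (adjusted p = 0.64 by limma) and -0.12 for Cxcr4 (adjusted p = 0.68). Ccr7 (-1.41, adjusted p = 0.0006), Ccl21a (-1.28, adjusted p = 0.023) and Cxcl14 (-0.89, adjusted p = 0.0063) passed as lower by the same measure. The list median was itself higher in Siah2 KO tumors, which lowers every member relative to it. Values of the members near background are left out. Of 10 blood endothelial markers, Pecam1 (0.88) and Icam2 (0.63), which leukocytes also carry, rose, Vwf (-0.79) and Cdh5 (-0.45) fell, and 6 did not pass. The part of these cell types in the Cxcl12 and Cxcr4 values was not tested.

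**Figure D3:**
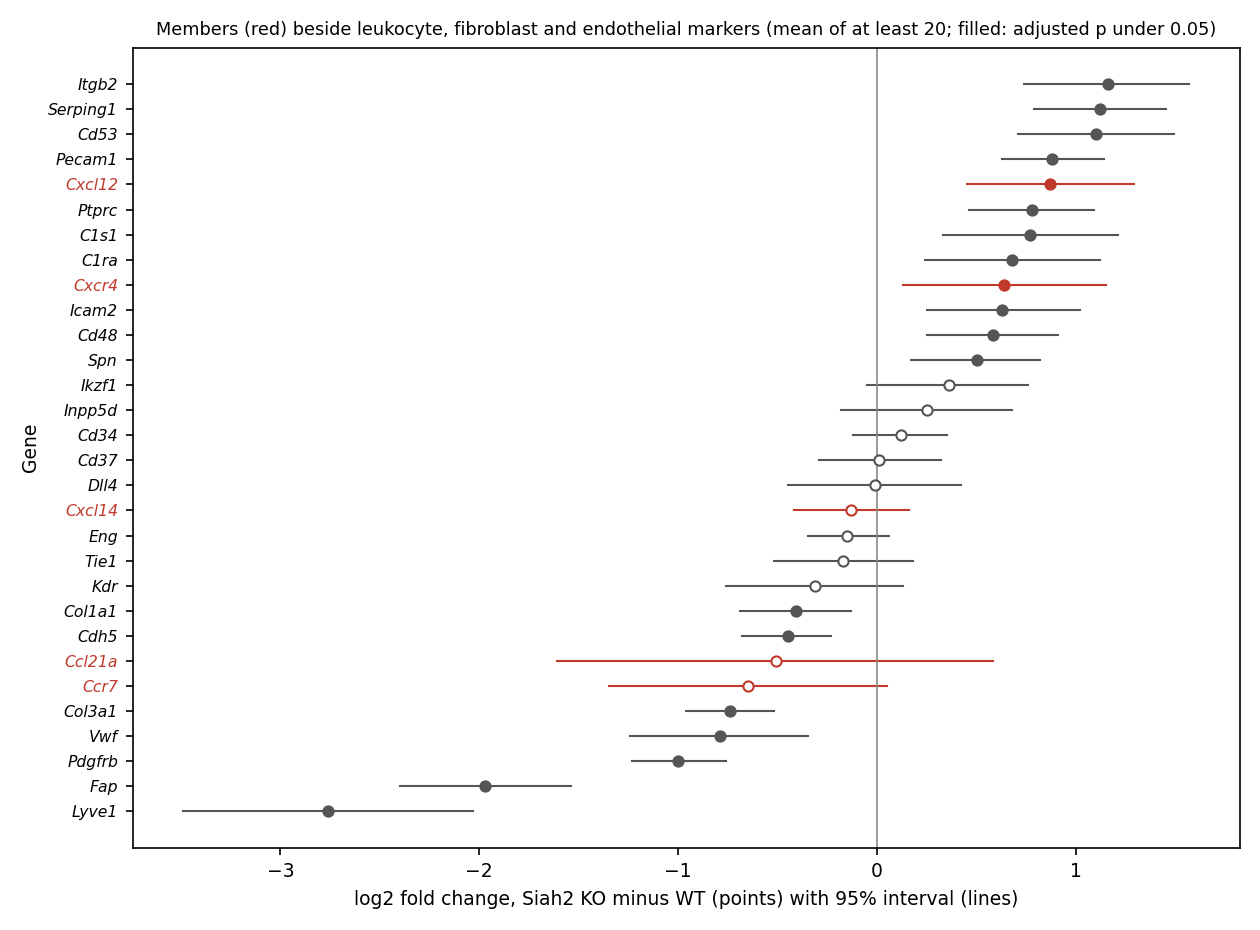
Log2 fold changes, Siah2 KO minus WT, with 95% intervals, of the 5 members (red) and the leukocyte, fibroblast and endothelial markers with a mean normalized count of at least 20. Cxcl12 (0.87) and Cxcr4 (0.64) lie among Ptprc (0.78), Pecam1 (0.88) and the complement genes, and Ccr7 and Ccl21a lie near Col3a1 and Vwf.

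Genes of lymphoid tissue outside the members moved in both directions. In a list of 11 lymphoid organ and naive lymphocyte genes, 4 rose, 1 fell and 6 did not pass (median log2 fold change 0.28). This is close to the panel, where 31.3% of all probes rose and 9.74% fell (median 0.24). Among those that rose were Il7r (1.97), the receptor of the survival cytokine Il7, Icos (0.77), a costimulatory receptor of activated T cells, and Bcl6 (0.50), the regulator of germinal center cells. Vcam1, an adhesion molecule of stroma and vessels, fell by 0.39 on the log2 scale. Tcf7, a transcription factor of naive and memory T cells, was at -0.16 on the log2 scale (adjusted p = 0.37). Glycam1, a selectin ligand of lymph node venules, was at 1 to 2 normalized counts and above the negative controls in 0 of 10 tumors.

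Lymphotoxin and the noncanonical NF-kB pathway induce homeostatic chemokines in lymphoid stroma. Of 12 genes of this pathway, 2 rose, where 31.3% of all probes did, and 10 did not pass the test (median log2 fold change 0.11). The risers were Tnfrsf14, the receptor HVEM (0.90, adjusted p = 0.0043 by limma), and Chuk, the kinase IKKα (0.25, adjusted p = 0.038), whose direction turned under median scaling (-0.01) and quantile normalization (-0.12). Ltb (0.13), Ltbr (-0.09), Relb (0.16) and Nfkb2 (-0.15), also in this pathway, had adjusted p from 0.24 to 0.52 by limma.

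Among the other chemokine genes of the panel, 16 of 46 rose and 7 fell, with a median log2 fold change of 0.29. Over all probes 31.3% rose and 9.74% fell. Of the 31 other ligands, 12 rose and 4 fell. The inflammatory ligands Ccl4 (2.20) and Ccl3 (2.02) and the eosinophil attractant Ccl11 (1.72) rose most among those with a mean of at least 20. Ccl17 (-3.46) and Ccl22 (-1.37), the Ccr4 ligands of dendritic cells and macrophages, and Ccl1 (-1.36), a Ccr8 ligand, fell. Of 15 other receptors, 4 rose and 3 fell, with Cxcr6 (1.70), Ccrl2 (1.17), Cxcr3 (1.07) and Cx3cr1 (-2.34) among those with a mean of at least 20. Other homeostatic chemokines, which direct cells to gut and skin (Ccl25, Ccl27a, Ccl28 and the receptor Ccr9), gave 0 calls of 4 by limma, also at an unadjusted p under 0.05 and by the equal variance test. Only 1 of the 4 had a mean of at least 20. Ccl27a (mean 3.46) and Ccl28 (mean 3.73) were at the level of the negative controls, so the lack of calls says little about them. The members, ligands and receptors together, had a median of -0.10, set by Ccl19 and Cxcr5, which were near or in the background. That median lay below those of the other ligands and receptors together (0.29), of the ligands alone (0.41) and of the receptors alone (0.07). These differences were not tested.

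**Figure D4:**
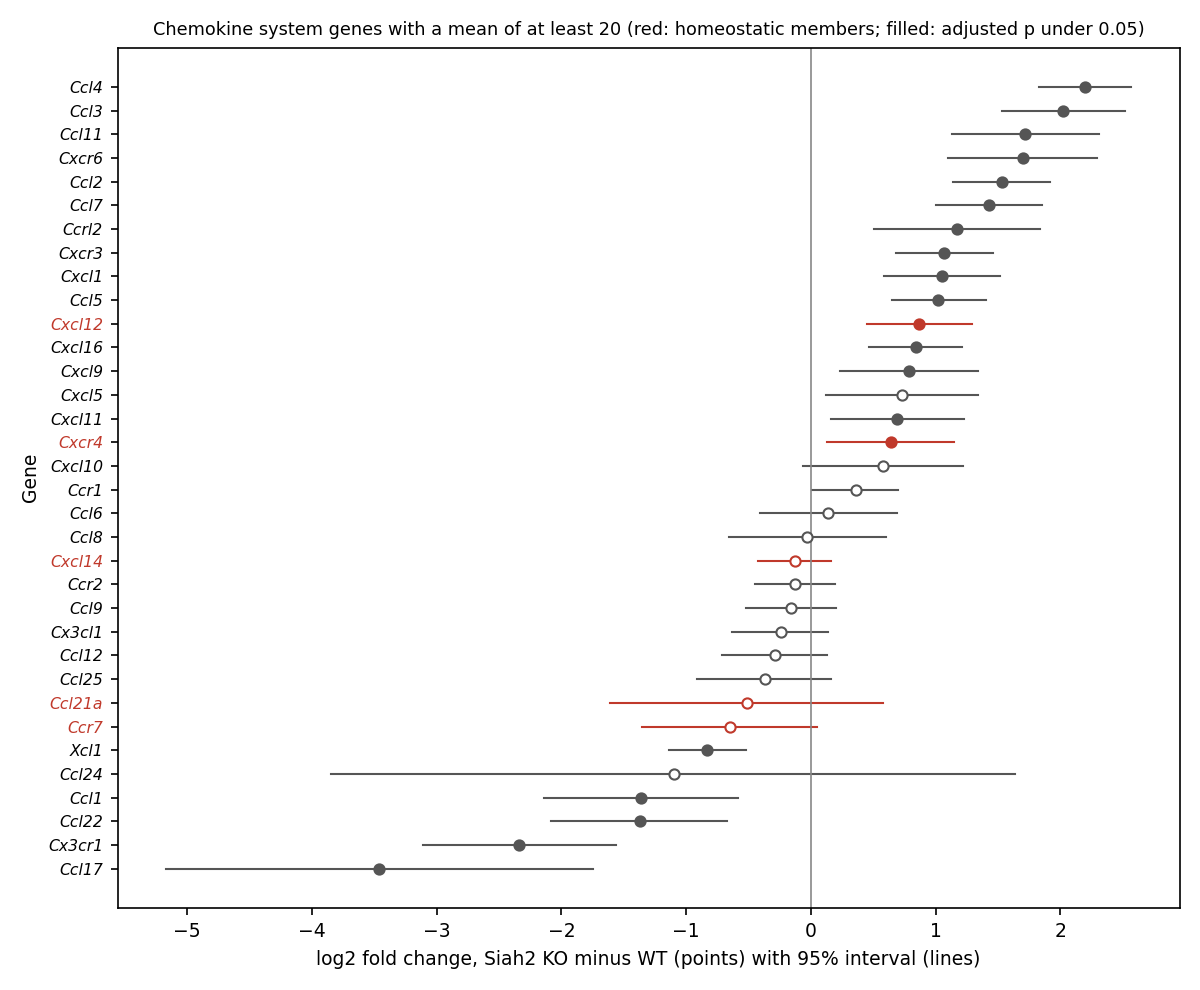
Log2 fold changes, Siah2 KO minus WT, with 95% intervals, of 34 of the 35 chemokine ligands and receptors with a mean normalized count of at least 20, 5 of them members (red), with filled points at an adjusted p under 0.05. Cxcl12 (0.87) and Cxcr4 (0.64) lie in the lower part of the plotted genes that rose, below Ccl4 (2.20), Ccl3 (2.02) and Ccl11 (1.72).

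Over the whole panel, 316 of 770 probes passed the test, 241 higher and 75 lower in Siah2 KO tumors, and median scaling gave 163 higher and 152 lower. The total of normalized counts was 575773 to 741789 in Siah2 KO and 512955 to 585366 in WT tumors, and the sum before the reference gene factor was 382853 to 581656 over all tumors. The factor was 1.03 to 1.6 in Siah2 KO and 0.918 to 1.32 in WT tumors, and 39 to 84 probes were at the floor. No 2 tumors were copies of each other, with the closest pair at a correlation of 0.9902 across genes. Of 4 melanocyte lineage markers, Cspg4 (-0.87) and S100b (-2.39, near the floor in Siah2 KO tumors) fell, and Mcam and Kit did not pass the test.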

How the data were processed

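Gene expression was measured with the NanoString nCounter PanCancer Immune Profiling panel for mouse in 10 tumors, 5 WT and 5 Siah2 KO, grouped by the labels. The authors used nSolver for quality control and scaled each signal to the geometric mean of 20 reference genes, and deposited normalized counts of 784 probes (750 endogenous genes, 20 reference genes, 6 positive and 8 negative controls). A background subtraction and a floor of 1 were also applied ahead of the scaling, which the sources used here do not describe. Values were held at 1 or more after the scaling too, as in WT replicates 3 and 4, with factors of 0.974 and 0.918. Probes at the floor therefore read higher in Siah2 KO tumors, as for Il17f at means of 1.3 in Siah2 KO and 1.06 in WT (log2 fold change 0.15).

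For each probe log2(normalized count + 1) was computed, and Siah2 KO was compared with WT in limma 3.58.1 (lmFit, eBayes; R 4.3.3), two-sided, with Benjamini-Hochberg adjustment over 770 probes. The exact permutation test of a difference in mean log2 value covered 252 divisions of the tumors, two-sided. The negative control limit is the highest of the 8 probes in a tumor times its factor. The members and gene lists were chosen with earlier results of these data known. Named genes are all members, up to 3 highest and 3 lowest fold changes of each list at an adjusted p under 0.05 and a mean of at least 20, and the 3 probes most like each member. Ltb, Ltbr, Relb, Nfkb2, Tcf7, Bcl6, Glycam1, Col1a1, S100b, Mcam, Kit, Lamp3 and the B cell genes were named after their values were seen. Alternatives were 4 scalings, a filter and a floor at 20, a pseudocount of 10, endogenous probes only, the equal variance test of the methods, an intensity trend, the replicate number as a block, the same 8 tumors without it, values relative to leukocyte and fibroblast markers, and leaving out each tumor. Some genes of the lists, counted in them, are not reported here by name. The steps were tested on simulated data. Promoter sequences are from RefSeq, GRCm38.p6. Plots used Python 3.11.15 and matplotlib 3.10.9.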

Additional observations from a re-analysis of the deposited data

Results flagged for a closer look

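Ccl21a in WT replicate 6 was at 111 normalized counts, against 47.1 in the next WT tumor, and the gap took 0.729 of the range of the 5 WT tumors, above Dixon's critical value. Of 26 groups of values checked, 1 stood out in this way, and chance gives about 1 in 20. Without that tumor the log2 fold change of Ccl21a was -0.21 in place of -0.51, and neither value passed the test.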

How the results depend on the processing

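Cxcl12 kept its direction in every alternative and its call in 11 of 12 settings of scaling, filter and test and in all 10 fits without a tumor. It lost the call under positive control scaling (0.71) and relative to the fibroblast markers. Cxcr4 kept its call in 5 of 12 settings, and relative to the fibroblast markers its log2 fold change turned to -0.12. The median of the fibroblast list was itself higher in Siah2 KO tumors, which lowers every member relative to it. Chuk turned to -0.01 under median scaling and -0.12 under quantile normalization. The number of members called was 2 (2 higher). It was 3 with quantile normalization (1 higher, 2 lower), 2 with median scaling (1 higher, 1 lower), 0 with positive control scaling and 1 with the floor of 20, the equal variance test of the methods, the replicate block, and the 8 tumors of that block without it. Without each tumor in turn it was 1 to 2, and 1 without WT replicates 3, 4 or 6 or Siah2 KO replicates 1, 2, 3 or 5. Positive control scaling also moved the probes called over the panel from 316 to 95 and the other chemokine genes called from 23 to 15. The cause was not tested.

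The replicate numbers were taken only as names. Deviations of tumors with the same number correlated at 0.05, 0.14, 0.18 and 0.49 (numbers 2, 3, 5 and 6), and the block gave 235 probes called against 232 in the same 8 tumors without it, with Cxcr4 at 0.52 (adjusted p = 0.093 with the block). No ligand and receptor difference passed the test under any alternative tried (lowest adjusted p 0.44). Cxcl13 and Cxcr5 had no usable level and Ccl19 was near the negative controls, and low depth and low expression cannot be told apart there. With 5 tumors a group, the exact test cannot go below 0.0079.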

Other observations

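For each member with a mean normalized count of at least 20, the probes with the most similar profile over the 10 tumors were found among 601 others, by the root mean square difference of centred log2 values. For Cxcl12 they included Klrk1 (0.2) and Ptprc (0.21), where the root mean square of Cxcl12 itself was 0.52. For Cxcr4 they were Lck (0.19), Ly9 (0.2) and Cd84 (0.21), against 0.47 for Cxcr4 itself. For Ccr7 they were Vwf (0.22), Tnfrsf4 (0.27) and Cx3cl1 (0.37), against 0.58. The Ccl21a profile had no close match, the nearest being Tnfrsf13b (0.66), Flt3 (0.68) and Fcer1a (0.7) against 0.81 for Ccl21a itself. Cxcl14 was nearest to Gtf3c1 (0.13), Ecsit (0.13) and Map3k7 (0.15), genes with as little spread as its own 0.19. The 10 points of each profile share the scaling of their tumor and the division into WT and Siah2 KO.

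Dendritic cell markers rose in 3 of 8 genes, Itgax (0.86), Cd86 (0.75) and Cd80 (0.43), while Lamp3, a marker of mature dendritic cells that carry Ccr7, was at 1 to 1.83 normalized counts and above the negative controls in 0 of 10 tumors. Of 6 macrophage markers Msr1 (0.92) and Cd68 (0.87) rose and 4 did not pass, while Cd163 (-1.86) and Mrc1 (-0.89), outside that list, fell. Of 7 epithelial markers Cdh1 (-0.71) fell and 6 did not pass. These counts stand beside 31.3% of all probes that rose and 9.74% that fell.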
